A study of Rattus norvegicus with 10 samples.

Results

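The genes described here mark the layers and projection neurons of the cerebral cortex. They were taken from a written list of 41 markers, of which 40 had a probe set that the array's annotation ties to them alone, among 16941 genes measured in this way. Tshz2 had none and is named only, and for Foxp2, which had 2, the probe set with the higher mean over the arrays was used. The levels of the 40 genes were measured in the prefrontal cortex (PFC) of adult male Sprague–Dawley rats 24 h after the start of footshock (FS) stress, with whole-transcript arrays and 1 array per rat. The 5 FS rats, labelled Stress, received shocks of 0.8 mA in a single session of 40 min, of which 20 min was actual shock, and were kept in their own cages up to 24 h. The 5 controls had no such session. No gene was altered in either group, and the 10 samples are separate rats, so the spread within a group holds both biological and technical variation.

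The cortex is built of layers of excitatory neurons that differ in their targets. Neurons of the upper layers connect cortical areas with each other and carry the homeodomain factors Cux1 and Cux2, layer 4 receives thalamic input and carries Rorb, layer 5 sends axons to the striatum, brainstem and spinal cord under control of Fezf2 and Bcl11b, and layer 6 projects to the thalamus and carries Tbr1 and Foxp2. A deeper sheet, layer 6b, retains cells of the embryonic subplate. The rodent PFC has a thin or missing layer 4, and several of these factors, among them Bcl11b, Foxp1, Foxp2 and Pcp4, are also well known from striatal medium spiny neurons.

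All values are log2 values from robust multi-array averaging (RMA), in which 1 unit is a doubling. Differences are FS minus control, so a positive one is higher in FS rats. A level belongs to its own probe set and is not set against that of another gene. General markers of excitatory cortical neurons were read as a description, with no standard by which they could test the tissue label. The vesicular glutamate transporter gene Slc17a7 was at 12.2 ± 0.072 (SD, n = 5) in controls and 12.3 ± 0.083 (SD, n = 5) in FS rats, and Camk2a, the calcium/calmodulin kinase of these neurons, at 13.2 in both. The arrays correlated with each other at 0.994 to 0.998. FS replicate 2 stood apart in choroid plexus and ependymal markers, with a mean of 1.73 on the log2 scale after centring per gene, against -0.35 to 0.13 in the other 9 rats. The markers of striatal medium spiny neurons, 22 of 24 measured, varied within both groups, with a mean between -0.34 and 0.38 in controls and between -0.41 and 0.16 in FS rats. No value of any marker is read here as a cell number, since in tissue RNA fewer cells of a type and less RNA per cell cannot be told apart.

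To see whether FS changed the markers after 24 h, the groups were compared in limma over all 18304 probe sets tested, with Benjamini–Hochberg adjusted p-values. Of the 40 markers, 0 passed an adjusted p of 0.05, and the lowest adjusted p was 0.502, that of Lamp5. In the same fit 0 of all probe sets passed (0%). At an unadjusted p under 0.05 there was 1 marker, Lamp5, higher in FS rats, beside 9.84% of all probe sets in either direction, 5.75% higher and 4.09% lower. The count was 4 of 40 without control replicate 3 or 4, 3 without control replicate 5, and 0 without any 1 of FS replicates 1, 3, 4 and 5. For these fits the share over all probe sets was not counted. The number of such markers is therefore not read as a result about them. The median difference over the 40 markers was -0.011, beside 0.00044 over all probe sets, with 15 markers positive and 25 negative. The split depended on how arrays were scaled, and was 21 positive and 19 negative after quantile normalization, and 18 and 22 with each array centred on its median. Without FS replicate 2 it was 22 positive and 18 negative. Of the markers, 0 had all 5 FS rats above or all 5 below the controls, which held for 0.972% of all probe sets in each direction.

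**Figure D1:**
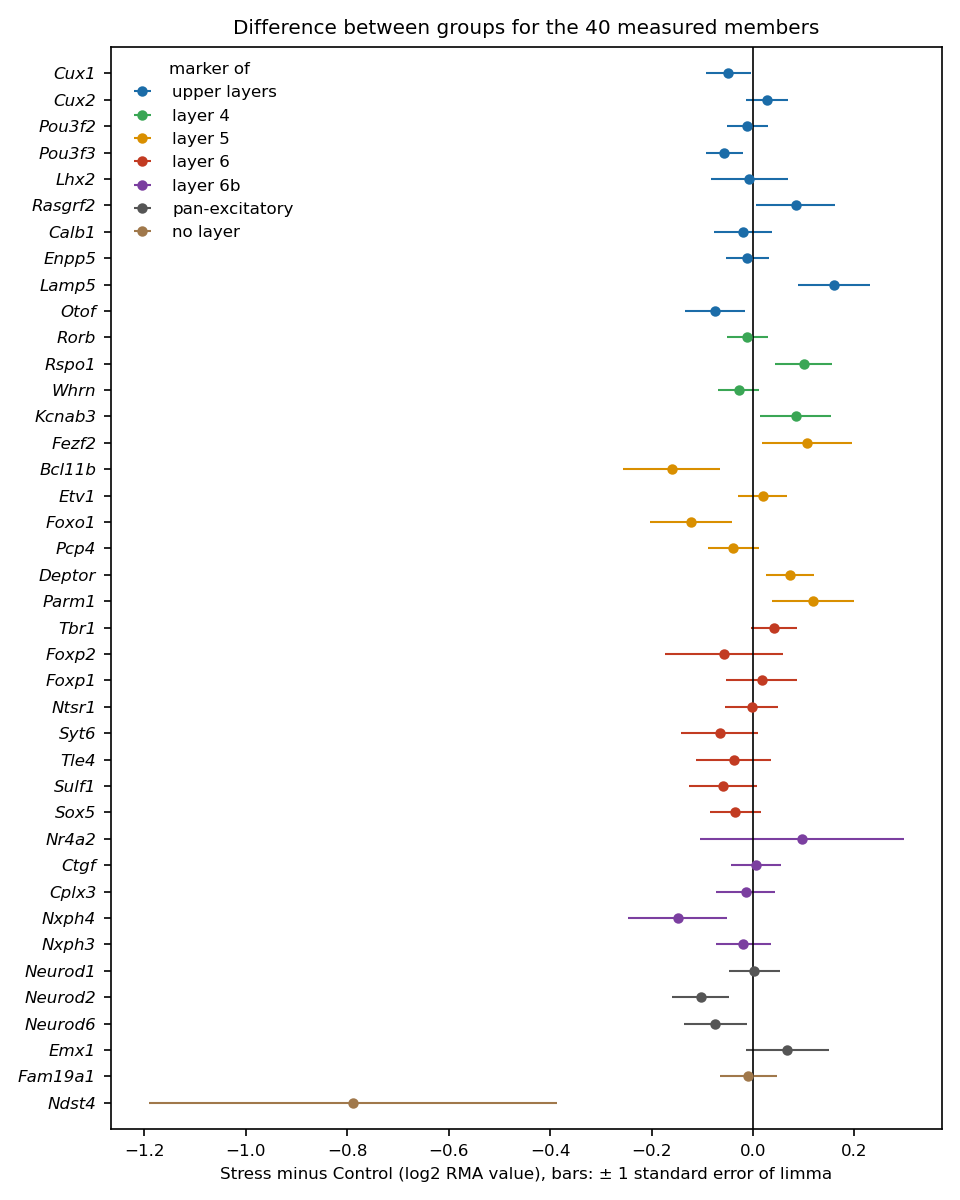
Difference between FS rats (Stress) and controls for each of the 40 markers on the x axis, in log2 RMA units, with bars of 1 standard error from limma and colours for the layer groups. The points lie between -0.16 and 0.16 apart from Ndst4 at -0.79, whose bar is also the widest.

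The upper layer markers are 10 genes, of which 3 had a positive and 7 a negative difference, with a median of -0.011. Lamp5, a membrane protein of the LAMP family that marks layer 2 and 3 neurons and some interneurons, was at 11.28, 11.28, 11.30, 11.37 and 10.97 in control replicates 1 to 5. In FS replicates 1 to 5 it was at 11.53, 11.27, 11.39, 11.40 and 11.41. FS replicate 1 was highest and control replicate 5 lowest, and FS replicate 2 lay below 4 of the controls, so the groups overlap. The difference was 0.16 (standard error 0.071, limma adjusted p = 0.502). An exact permutation test over the rats, two-sided, gave p = 0.0556 without adjustment. Without control replicate 5 the difference was 0.093, and without FS replicate 1 it was 0.13.

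Pou3f3, a POU factor that acts with its paralog Pou3f2 in upper layer neurons, had the lowest moderated statistic of this group. It was at 9.20, 9.16, 9.18, 9.20 and 9.09 in controls and at 9.06, 9.06, 9.15, 9.14 and 9.12 in FS rats. All FS rats lay below the 4 highest controls, and control replicate 5 lay among the FS rats. The difference was -0.057 (standard error 0.037, adjusted p = 0.623 in limma). Pou3f2 had a difference of -0.011 and Lhx2, a LIM homeodomain factor, one of -0.0072. Cux1 and Cux2 differed by -0.049 and 0.028 (adjusted p = 0.741 and 0.853 in limma), both below the standard deviation of either group. The difference was 0.084 for Rasgrf2, an exchange factor for Ras, -0.019 for the calcium-binding protein gene Calb1, -0.011 for Enpp5 and -0.075 for Otof, which encodes the calcium sensor otoferlin.

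Of the 4 layer 4 genes, 2 were positive and 2 negative. Rspo1, which encodes a secreted enhancer of Wnt signalling, was at 7.76, 7.74, 7.68, 7.85 and 7.53 in controls and at 7.81, 7.81, 7.74, 7.90 and 7.82 in FS rats. Control replicate 5 was lowest, and control replicate 4 lay above all FS rats but 1. The difference was 0.10 (standard error 0.056, adjusted p = 0.572 in limma), and it was 0.054 without control replicate 5. Rorb, the nuclear receptor that defines layer 4, was nearly level between the groups, at 9.44 ± 0.069 (SD, n = 5) in controls and 9.43 ± 0.032 (SD, n = 5) in FS rats. Whrn, a scaffold protein gene, had a difference of -0.028 (standard error 0.040, limma adjusted p = 0.846). That of Kcnab3, a potassium channel subunit, was 0.084.

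The 7 measured layer 5 genes split into 4 positive and 3 negative. They had the largest median absolute difference of the 5 groups of layer markers, 0.11, beside 0.046 over all probe sets. Their median standard deviation, with the group means removed, was also the largest of these groups, 0.15, beside 0.084 over all probe sets. Fezf2 and Bcl11b, the factors of subcerebral neurons, had differences of opposite sign. Bcl11b, a zinc finger factor of corticospinal neurons, was at 9.68, 9.58, 9.19, 9.52 and 9.51 in controls and at 9.53, 9.44, 9.07, 9.33 and 9.33 in FS rats. The third replicate was lowest in both groups, and controls 1, 2, 4 and 5 lay above 4 of the FS rats. The difference was -0.16 (standard error 0.095, adjusted p = 0.590 in limma), and it was -0.24 without control replicate 3 and -0.092 without FS replicate 3. Its upstream partner Fezf2 had a difference of 0.11 (standard error 0.088, adjusted p = 0.713 in limma). Foxo1, a forkhead factor held back by insulin signalling, had a difference of -0.12, and Parm1, a mucin-like membrane protein gene, one of 0.12. Deptor, an inhibitor of mTOR, had the highest moderated statistic of the layer 5 genes, with a difference of 0.072 (standard error 0.047, adjusted p = 0.624 in limma). Those of Pcp4, a modulator of calmodulin, and of the ETS factor Etv1 were -0.039 and 0.019.

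The layer 6 genes were 2 positive and 6 negative, with a median of -0.036 and adjusted p-values from 0.788 to 0.992. The striatal markers had 5 positive and 17 negative differences with a median of -0.13. Of these 22 genes, 0 had an unadjusted p under 0.05 in limma, beside 9.84% of all probe sets, and the lowest adjusted p was 0.510. They varied together (median pairwise r = 0.87), and their mean differed by -0.11, against a standard deviation of 0.34 among controls. With that mean as a covariate the layer 6 median was -0.010. Without control replicate 2, and with no covariate, the layer 6 median was 0.012. Tbr1, the T-box factor that specifies corticothalamic neurons, was at 11.2 in both groups with a difference of 0.042 (standard error 0.045, adjusted p = 0.788 in limma). Sulf1, a sulfatase of heparan sulfate, had one of -0.060 (standard error 0.066, adjusted p = 0.798 in limma), which was -0.0080 without control replicate 4, -0.027 without FS replicate 3, and -0.025 with the striatal covariate. Foxp2, a forkhead factor, ranged from 8.41 to 9.08 in controls and from 8.60 to 8.98 in FS rats. Its 5 controls were 8.82, 9.08, 8.66, 9.03 and 8.41, and its FS rats 8.76, 8.98, 8.60, 8.68 and 8.70. The FS rats thus lay within the range of the controls. The difference was -0.057 (standard error 0.12, adjusted p = 0.892 in limma), and the other Foxp2 probe set gave -0.11 (adjusted p = 0.786 in limma). Without control replicate 2 the difference was 0.013. Its paralog Foxp1 had one of 0.017, the neurotensin receptor gene Ntsr1 one of -0.0030, the synaptotagmin gene Syt6 one of -0.066, the corepressor gene Tle4 one of -0.038, and Sox5, a factor of deep-layer neurons, one of -0.035.

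The 5 layer 6b genes held the second most variable marker. Nr4a2, the orphan nuclear receptor Nurr1, which also marks the claustrum and endopiriform nucleus, was at 10.86, 10.76, 10.09, 10.91 and 9.91 in controls and at 10.84, 10.67, 10.11, 10.79 and 10.61 in FS rats. Control replicates 3 and 5 and FS replicate 3 were low, at 9.91 to 10.11, and the other 7 rats lay between 10.61 and 10.91. The difference was 0.097 (standard error 0.20, adjusted p = 0.895 in limma), and it was -0.0074 without control replicate 3 and -0.052 without control replicate 5. Nxph4, which encodes a secreted ligand of neurexins, was at 7.82, 7.84, 7.55, 8.12 and 7.75 in controls and at 7.87, 7.66, 7.43, 7.64 and 7.73 in FS rats. It was again lowest in the third replicate of each group. The difference was -0.15 (standard error 0.098, adjusted p = 0.625 in limma), and it was -0.073 without control replicate 4, -0.089 without FS replicate 3 and -0.098 with the striatal covariate. The difference was -0.019 for its paralog Nxph3, -0.014 for the complexin gene Cplx3, and 0.0050 for Ctgf, a matricellular growth factor that the array lists under its newer name Ccn2.

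Among the 4 genes of excitatory neurons at large, Neurod2, a basic helix-loop-helix factor, was at 9.44, 9.42, 9.44, 9.64 and 9.44 in controls. It was at 9.42, 9.21, 9.37, 9.39 and 9.47 in FS rats. Control replicate 4 was highest and FS replicate 2 lowest, and FS replicate 5 lay above 4 of the controls. The difference was -0.10 (standard error 0.057, adjusted p = 0.559 in limma), and it was -0.062 without control replicate 4 and -0.064 without FS replicate 2. The related factors Neurod6 and Neurod1 had differences of -0.074 and 0.0027, and the homeobox gene Emx1 one of 0.067 (standard error 0.082, limma adjusted p = 0.815).

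Ndst4 and Fam19a1 were not assigned to a layer. Ndst4, an enzyme that removes acetyl groups from heparan sulfate and adds sulfate in their place, had the widest spread of the 40 markers. It was at 7.98, 7.72, 8.12, 9.36 and 10.08 in controls and at 7.94, 8.45, 7.43, 8.05 and 7.45 in FS rats. Control replicates 4 and 5 were far above all other rats, and the other 3 controls lay within the range of the FS rats. The difference was -0.79 (standard error 0.40, adjusted p = 0.535 in limma), which is below the standard deviation among controls, 1.02. Without control replicate 5 it was -0.43 and without control replicate 4 -0.61. Fam19a1, listed under the newer name Tafa1, which encodes a small secreted protein, had a difference of -0.0091 (standard error 0.057, limma adjusted p = 0.972), which was 0.0078 after quantile normalization and 0.0010 with arrays centred on their medians.

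**Figure D2:**
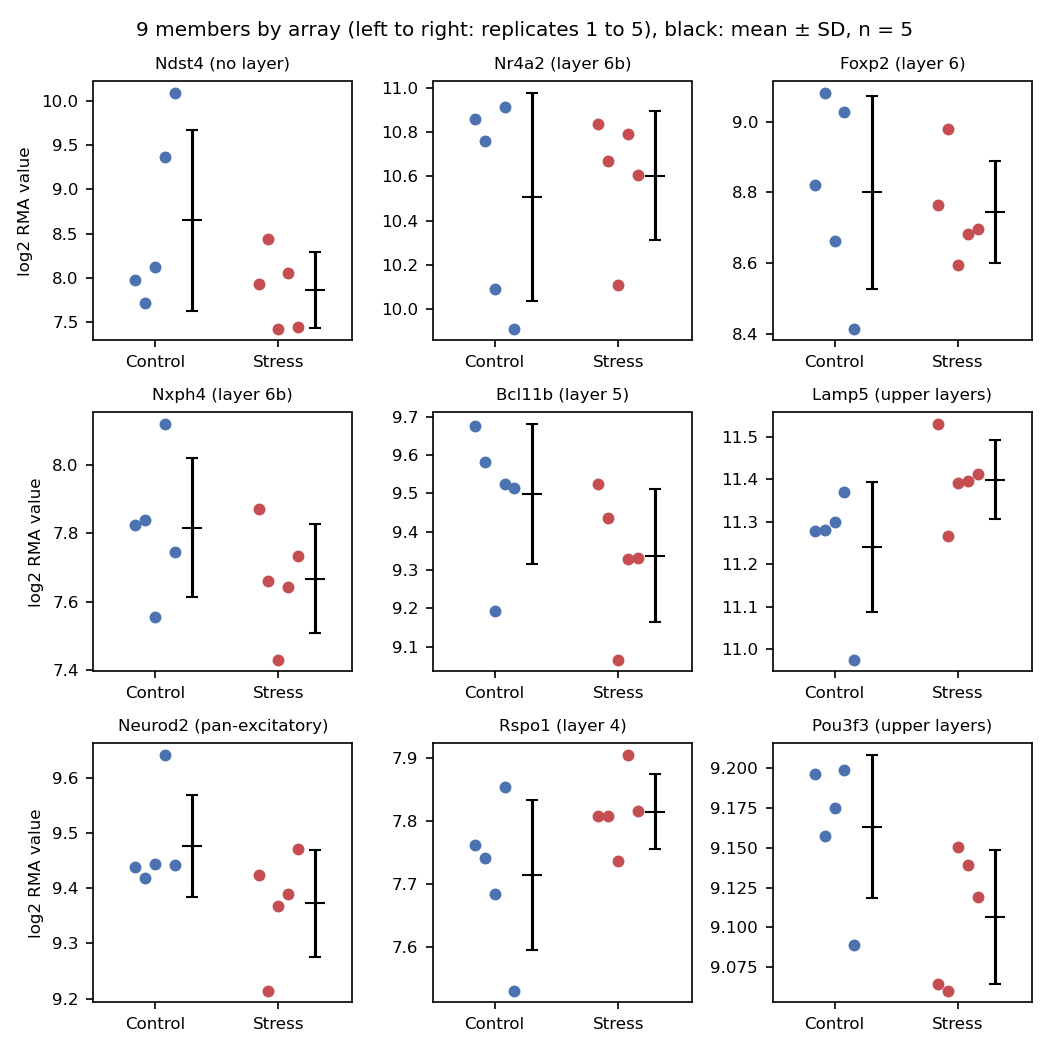
Log2 RMA values of 9 markers in each of the 5 controls and 5 FS rats (Stress), with replicates 1 to 5 from left to right and the mean ± SD in black. Ndst4 is high in control replicates 4 and 5 alone, and Nr4a2 is low in control replicates 3 and 5 and FS replicate 3.

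A further list of 40 genes known from cortical projection neurons, of which 34 were measured, was compared in the same fit. Of these, 22 were positive and 12 negative with a median of 0.026, beside 50.3% positive and a median of 0.00044 over all probe sets. An adjusted p of 0.05 was passed by 0, beside 0% of all probe sets. At an unadjusted p under 0.05 in limma there were 0 higher and 1 lower, beside 5.75% and 4.09% of all probe sets. These counts are not read as a result about this list. The lowest moderated statistics were those of Trib2, a pseudokinase of layer 5 neurons (-0.18, standard error 0.058, adjusted p = 0.385 in limma), and of the plexin receptor gene Plxnd1 (-0.10, adjusted p = 0.522). The highest were those of Id2, an inhibitor of helix-loop-helix factors (0.080, adjusted p = 0.516), and Neurod4 (0.095, adjusted p = 0.552). The mean of this list differed little between rats, from -0.043 to 0.026 in controls and from -0.029 to 0.044 in FS rats.

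The markers differed widely in how much they varied from rat to rat. With the group means removed, the standard deviation over the 10 arrays ran from 0.043 for Pou3f3 to 0.78 for Ndst4, with a median of 0.097 beside 0.084 over all probe sets. Ndst4 stood at the 99.96th and Nr4a2 at the 99.5th percentile of this measure over all probe sets, followed by Foxp2 (97.5th), Nxph4 (95.6th) and Bcl11b (95.1st). At the other end, Pou3f3 (7.54th), Rorb (16.4th), Whrn (16.5th) and Pou3f2 (18.0th) were among the steadier probe sets. The median correlation between pairs of markers over the 10 arrays was 0.23, beside 0.0065 over all 143490270 pairs of genes. These correlations share the RNA preparation and normalization of each array and are given with no test. Pairs within a layer group had a median of 0.26 and pairs of different groups 0.22. It was 0.36 among upper layer genes, 0.22 in layer 4, 0.18 in layer 5, 0.27 in layer 6, 0.13 in layer 6b and 0.53 among the genes of excitatory neurons at large. Upper layer genes correlated with the latter at a median of 0.50 and with layer 6b genes at 0.11. The median over all pairs was 0.13 after quantile normalization, 0.11 without control replicate 5, 0.16 without control replicate 4 and 0.23 without FS replicate 2.

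**Figure D3:**
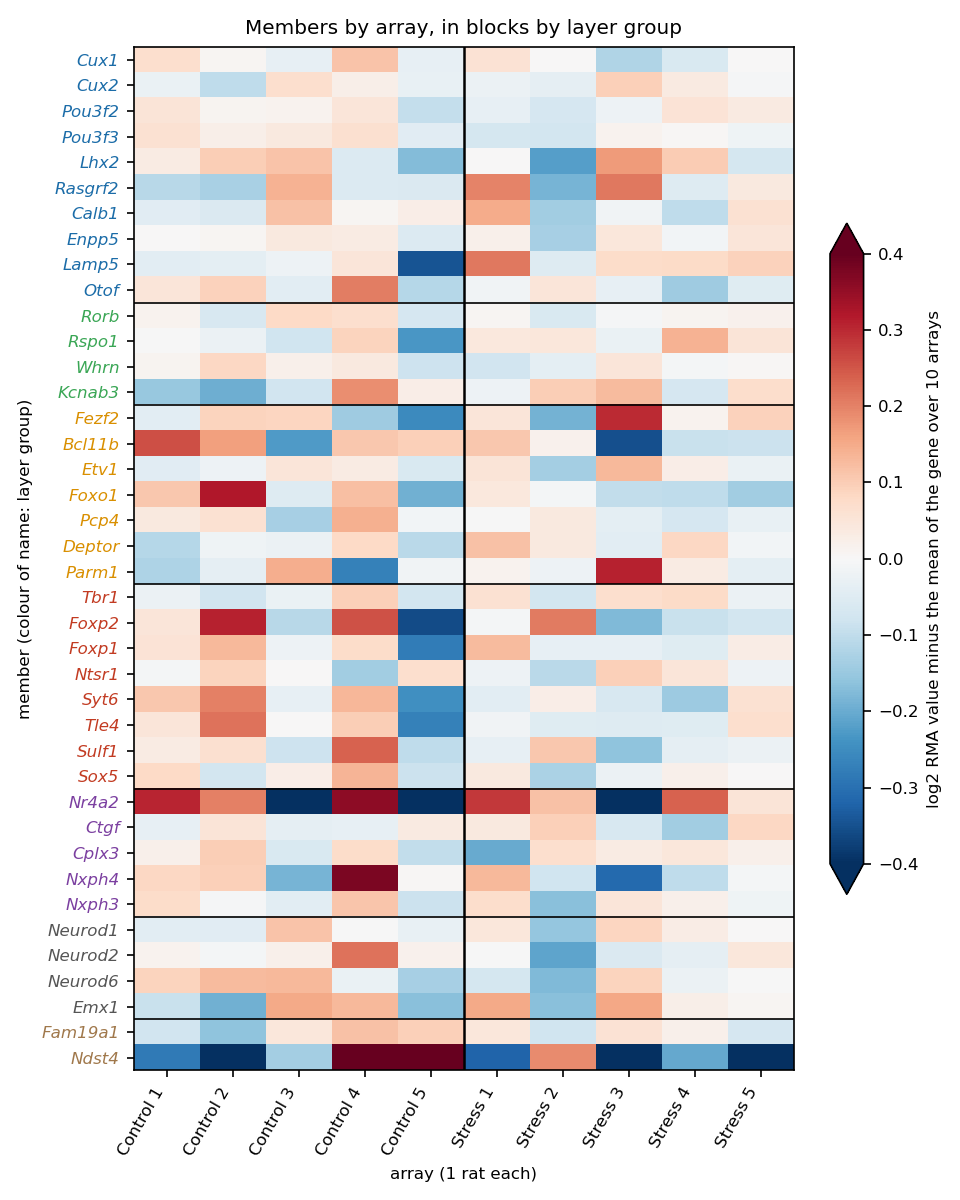
Log2 RMA value of each marker in each array minus the mean of that gene over the 10 arrays, with markers in blocks by layer group and arrays (1 rat each) in columns; colours are limited to -0.4 and 0.4, which Ndst4 and Nr4a2 exceed. Control replicate 5 is the lowest array for 12 markers, among them the layer 6 genes Foxp1, Foxp2, Syt6 and Tle4, and FS replicate 2 for 11, among them Neurod1, Neurod2 and Neurod6.

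The extreme values fell often on a few rats. Control replicate 5 was the lowest of the 10 arrays for 12 of the 40 markers and FS replicate 2 for 11, while control replicate 4 was the highest for 13. The same counts were not made over all probe sets, so these are not read as particular to the markers. Control replicate 4 also had the highest median over the tested probe sets, 7.87 against 7.82 to 7.85 in the other arrays. Over all probe sets in the file its median was the lowest, 7.32 against 7.33 to 7.37. In control replicate 5 the mean of the layer 6 genes, centred per gene, was -0.17 against -0.030 to 0.11 in the other controls. In FS replicate 2 the mean of the genes of excitatory neurons at large was -0.18 against -0.0011 to 0.068 in the other FS rats, and that of the upper layer genes -0.086. The latter was also low in control replicate 5, at -0.092, where the mean of the choroid plexus and ependymal markers was -0.17. FS replicate 2 had the high choroid plexus and ependymal markers named above and the highest meningeal fibroblast markers, at 0.85 against -0.49 to 0.13 in the others. Their part in the low values of these genes was not tested. Without FS replicate 2 the median difference was 0.0012 for the genes of excitatory neurons at large and 0.017 for the upper layer genes, in place of -0.036 and -0.011.

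The relation to the striatal markers differed in sign between genes of a layer. With the group means removed, 23 of the 40 markers correlated positively and 17 negatively with the mean of the striatal markers, and each layer group other than layer 6b and the unassigned genes held both signs. The median r was 0.73 for the 8 layer 6 genes and 0.47 for the 7 layer 5 genes, -0.048 for upper layer genes and -0.17 for the genes of excitatory neurons at large. Within layer 5, Foxo1, Bcl11b and Pcp4 had r of 0.85, 0.79 and 0.73, and Fezf2, Etv1 and Parm1 had r of -0.18, -0.36 and -0.72. Within layer 6, Foxp2, Sulf1, Syt6, Foxp1 and Tle4 had r between 0.70 and 0.88, and Tbr1 and Ntsr1 had r of -0.011 and -0.46. Within the upper layers, Cux1 was at 0.78 and its paralog Cux2 at -0.68. With the mean of 6 claustrum and endopiriform markers, a list that itself varied with the striatal one (r = 0.86), Cux1 had r = 0.90 and Cux2 r = -0.46. Without the rats farthest from the median of that list, Cux2 had r = 0.26 and Cux1 r = 0.87.

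Over the 80 relations of 40 markers with these 2 lists, each tested by an exact permutation of the rats within the groups, two-sided, 0 Pearson correlations passed an adjusted p of 0.05. The smallest adjusted p was 0.0519. By Spearman's rho 1 passed, that of Nxph4 with the claustrum markers (rho = 0.94, exact permutation p = 4.2e-04, adjusted p = 0.0333, Pearson r = 0.91, exact permutation p = 8.3e-04, adjusted p = 0.0519). Without control replicate 3 and FS replicate 3, the rats farthest from the median of that list, its r was 0.79. How many of all tested genes correlate as highly with either list was not counted. The 1 relation that passed is therefore not read as particular to Nxph4 or to the markers. With the striatal markers, Foxo1 had r = 0.85 (exact permutation p = 0.00194, adjusted p = 0.0519) and rho = 0.84 (exact permutation p = 0.0130, adjusted p = 0.115), and r was still 0.85 without control replicate 5 and FS replicate 3, the farthest rats there. Foxp2 had r = 0.88 (exact permutation p = 0.00361, adjusted p = 0.0524) and rho = 0.88 (exact permutation p = 0.00431, adjusted p = 0.0689), and r = 0.79 without these 2 rats. Bcl11b had r = 0.79 (exact permutation p = 0.00535, adjusted p = 0.0535) and rho = 0.76 (exact permutation p = 0.00819, adjusted p = 0.0979), and r = 0.90 without them.

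Nr4a2 had the highest r with the striatal markers, 0.93 (exact permutation p = 0.00889, adjusted p = 0.0711) and rho = 0.88 (exact permutation p = 0.00910, adjusted p = 0.0979). Without control replicate 5 and FS replicate 3, r was 0.85. With the claustrum and endopiriform markers Nr4a2 had r = 0.92 (exact permutation p = 0.00292, adjusted p = 0.0524). Its rho there was 0.88 (exact permutation p = 0.00431, adjusted p = 0.0689), and r was 0.87 without control replicate 3 and FS replicate 3. The relations with the 2 lists were not told apart. The rats fell into separate sets: in control replicates 3 and 5 and FS replicate 3, Nr4a2 was at most 10.11 and the striatal mean at most -0.29, whereas the other 7 rats had at least 10.61 and -0.10. These sets were seen in the values themselves, so relations within them are given as a description and were not tested. Over the 7 rats, with their own group means removed, r with the striatal mean was -0.032 for Nr4a2. It was 0.11 for Nxph4, 0.12 for Sulf1, 0.14 for Tle4, 0.30 for Parm1 and 0.31 for Cux1. Pcp4, Syt6, Foxp1 and Foxp2 had r of 0.44, 0.45, 0.59 and 0.64, and Bcl11b and Foxo1 had r of 0.73 and 0.84. When the striatal mean entered the fit as a covariate, the difference between FS rats and controls was 0.23 for Nr4a2 (adjusted p = 0.445 in limma) in place of 0.097, and 0.014 for Foxp2 in place of -0.057. Whether striatal RNA has a part in the levels of these genes was not tested.

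**Figure D4:**
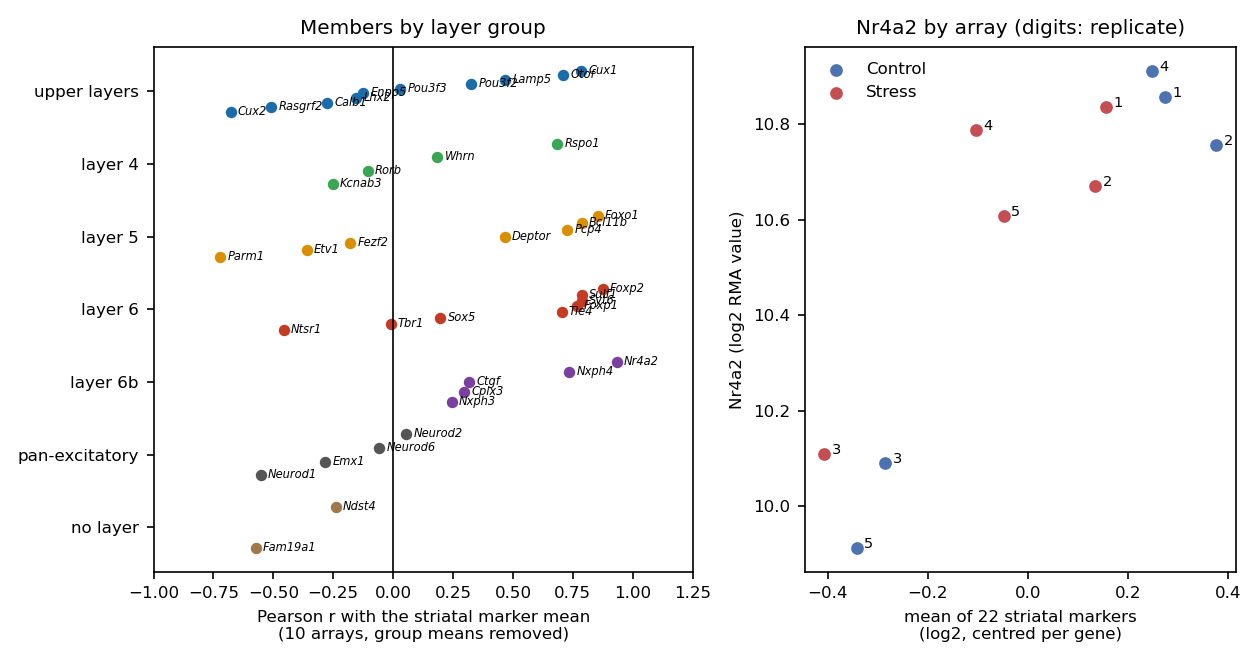
Left, Pearson r of each marker with the mean of 22 striatal markers over 10 arrays with the group means removed, in rows by layer group. Right, the log2 RMA value of Nr4a2 against the striatal mean per array in controls and FS rats (Stress), with control replicates 3 and 5 and FS replicate 3 at the lower left.

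The genes whose pattern over the 10 arrays, group means removed, was most like that of the most variable markers were looked up among the 16941 genes. For Nr4a2 they were Pde7b, a phosphodiesterase of cyclic AMP (r = 0.98), Drd2, the D2 dopamine receptor (r = 0.96), Ppp1r1b, which encodes DARPP-32 (r = 0.96), Rgs9, a regulator of G protein signalling (r = 0.96), and Hikeshi, a nuclear import factor for heat shock proteins (r = 0.95). Drd2, Ppp1r1b and Rgs9 are on the striatal list. For Ndst4 they were Sla (r = 0.96), an adaptor protein, Cimap1d (r = 0.96), Rasal3 (r = 0.95), a Ras regulator of blood cells, Cpox (r = 0.94), an enzyme of heme synthesis, and Psmb8 (r = 0.94), a subunit of the immunoproteasome. Being picked as the highest of 16941 values, these correlations are a description. Each of the 5 genes like Ndst4 had its highest value in control replicate 5, as Ndst4 did.

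To show the sequence before the start of markers that varied together, the 250 bases upstream were read from RefSeq, assembly GRCr8, for the 3 genes with the highest r with the striatal markers among those with a single entry, and for the one with the lowest, Parm1. Entries were found for 31 of the 40 markers, and Bcl11b, Foxp2 and Nxph4 are named only. Capitals mark matches on either strand to any of the searched motifs, which are the cyclic AMP response element (CRE) TGACGTCA and its core TGACG, which the whole element contains, the E-box CANNTG bound by Neurod factors, the forkhead motif TGTTTAC, the GC box GGGCGG and the TATA box TATAAA.
Nr4a2, chr3:62104888-62105137, minus strand: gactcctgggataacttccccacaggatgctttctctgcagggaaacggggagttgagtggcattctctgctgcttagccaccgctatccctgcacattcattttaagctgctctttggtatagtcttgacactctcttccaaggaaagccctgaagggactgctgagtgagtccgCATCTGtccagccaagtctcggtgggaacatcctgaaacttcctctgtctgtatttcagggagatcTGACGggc
Foxo1, chr2:138462724-138462973, plus strand: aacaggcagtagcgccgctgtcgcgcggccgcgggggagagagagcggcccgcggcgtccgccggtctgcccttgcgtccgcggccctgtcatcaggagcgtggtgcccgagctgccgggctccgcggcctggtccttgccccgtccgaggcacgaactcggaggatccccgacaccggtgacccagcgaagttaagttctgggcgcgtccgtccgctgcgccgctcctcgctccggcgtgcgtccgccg
Syt6, chr2:193781226-193781475, plus strand: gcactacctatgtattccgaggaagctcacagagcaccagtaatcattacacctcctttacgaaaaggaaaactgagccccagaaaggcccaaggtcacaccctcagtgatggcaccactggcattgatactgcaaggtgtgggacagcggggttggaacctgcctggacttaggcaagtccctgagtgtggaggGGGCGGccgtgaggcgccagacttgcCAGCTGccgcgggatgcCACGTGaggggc
Parm1, chr14:16861571-16861820, minus strand: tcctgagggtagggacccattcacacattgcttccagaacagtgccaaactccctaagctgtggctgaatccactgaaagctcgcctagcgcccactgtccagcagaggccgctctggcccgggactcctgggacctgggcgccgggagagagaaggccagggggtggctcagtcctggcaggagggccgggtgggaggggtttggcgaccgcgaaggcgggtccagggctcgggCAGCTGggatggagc
The Nr4a2 window held 1 CRE core and 1 E-box, that of Syt6 2 E-boxes and 1 GC box, that of Parm1 1 E-box and that of Foxo1 no match. Among all 33469 entries of the table, 18.2% held the CRE core, 1.59% the whole one, 65.5% an E-box, 3.21% the forkhead motif, 30.5% a GC box and 12.9% a TATA box. Of the 31 markers, 7, 1, 18, 1, 15 and 2 held these motifs in the same order. No searched motif was found in all 3 windows of the genes with high r, and their G and C content was 52.0% for Nr4a2, 74.4% for Foxo1 and 58.4% for Syt6.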

How the data were processed

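RNA from the PFC of 10 rats, 5 controls and 5 FS rats by the sample labels, was hybridized to Affymetrix Rat Gene 1.0 ST arrays. RMA in the oligo package, version 1.58.0, was run by the authors, and they deposited log2 values with 1 value for every probe set of a rat. Which genome build underlies the array annotation was not stated in these sources. Of 29214 probe sets, 18644 have 1 symbol in the platform annotation, 962 several and 9608 none, and the 18304 with 1 symbol and a mean above 4 were tested. Fam19a1 was matched as Tafa1 and Ctgf as Ccn2.

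FS rats were compared with controls with limma 3.58.1 in R 4.3.3, with moderated statistics and Benjamini–Hochberg adjustment, a design taken from the study's methods and tested on simulated data. The markers, lists, layer groups and rules were chosen with earlier results of these data known, and so was the rule for genes named: the highest and lowest moderated statistic in each layer group, the 5 largest standard deviations and the 6 smallest p-values. The precision is limited by 5 rats per group, and an exact permutation test of 5 against 5 cannot give a two-sided p below 0.00794. Alternatives changed the filter, scaling, array weights, variance prior, block, a striatal covariate, probe sets and the rats included. No columns of the authors' own comparisons were in the file.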

Additional observations from a re-analysis of the deposited data

Results flagged for a closer look

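By Dixon's criterion, 1 array lay far from the other 4 in 8 of the 80 groups of 5 arrays examined. The 80 groups are the 40 markers in each group of rats. Chance alone marks about 5%, or 1 group in 20. The markers share the same arrays, and the share marked over all probe sets was not computed. The count is therefore not read as a result about the markers. In controls, Pou3f2 was at 8.56 in replicate 5 against 8.67 to 8.71 in the others, and Lamp5 was at 10.97 in the same rat against 11.28 to 11.37. Control replicate 3 had the highest Rasgrf2 (9.82, others 9.55 to 9.62) and the highest Neurod1 (8.94, others 8.78 to 8.82). Neurod2 was at 9.64 in control replicate 4 against 9.42 to 9.44. In FS rats, Rorb was at 9.38 in replicate 2 against 9.43 to 9.45, Parm1 at 10.36 in replicate 3 against 10.01 to 10.09, and Cplx3 at 8.35 in replicate 1 against 8.58 to 8.62. These arrays came from 6 of the 10 rats.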

How the results depend on the processing

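Under every alternative run, 0 of the 40 markers passed an adjusted p of 0.05 in limma. The count of markers at an unadjusted p under 0.05, 1 over all rats, was 2 with the replicate block, 3 with the striatal covariate and 0 to 4 when 1 rat was left out. It was 4 without control replicate 3 or 4, 3 without control replicate 5, 2 without FS replicate 2, and 0 without any 1 of the other FS rats. The share of all probe sets at such a p was not counted under these alternatives. The changes in the count are therefore not read as a result about the markers. With the replicate block, 1 of the 2 was Bcl11b, with the lowest adjusted p of the markers in that fit (0.448 in limma). Replicate numbers were treated as names only. Deviations of same-numbered rats correlated at 0.14, 0.064, 0.23, -0.16 and 0.082 for replicates 1 to 5. No values for differently numbered rats were set beside these, so they cannot decide whether the numbers stand for pairs. Of the differences of the 15 markers named by rule, Fam19a1 turned positive after quantile normalization (0.0078), with centred arrays (0.0010) and with array weights (0.017), and Foxp2 with the striatal covariate (0.014); the cause was not tested. When 1 rat was left out, Fam19a1 ran from -0.051 to 0.019, Nr4a2 from -0.052 to 0.22 and Foxp2 from -0.15 to 0.013, and the other 12 kept their direction. The median over all markers ran from -0.042 to 0.0068. When 1 rat was left out, the layer medians changed sign in the upper layers (-0.031 to 0.017), layer 5 (-0.011 to 0.055), layer 6 (-0.076 to 0.012), layer 6b (-0.043 to 0.0088) and the genes of excitatory neurons at large (-0.060 to 0.0012), and stayed positive in layer 4 (0.012 to 0.069). After quantile normalization those of the upper layers and layer 6b were positive too (1.6e-04 and 0.0075). The median correlation between markers lay between 0.11 and 0.27 over all alternatives.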
